A study of Caenorhabditis elegans with 2 samples.

Results

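The 7 genes described here encode the anaphase-promoting complex of Caenorhabditis elegans and its activators: emb-27, mat-1, mat-3, mat-2 and emb-30 for subunits, and fzy-1 and fzr-1 for activators. They were selected by name, with earlier results of these data known, from 19973 protein-coding genes of the WBcel235 (ce11) annotation. A gene was counted as having a promoter site where a peak summit fell in a window that begins 1000 bp before a 5′ end of one of its transcripts and stops 200 bp after it. The data came from chromatin immunoprecipitation sequencing of CES-1, a transcription factor, in embryos of mixed stages. The worms were strain OP174, in an unc-119(ed3) background, with the integrated transgene wgIs174, which carries ces-1::TY1 EGFP FLAG and unc-119. Whole organisms of pooled male and female sex were used, so the signal was summed over all embryonic cell types, and a site used by few cells and one used weakly by many cannot be told apart. The labels give 2 biological replicates of 1 group and name the antibody only by its target, ces-1. The sample descriptions give the target as eGFP-ces-1, the tagged protein. No peak list of an untagged or input sample was analysed here, so the values below describe binding sites and hold no comparison between conditions.

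The anaphase-promoting complex is a multi-subunit ubiquitin ligase that marks mitotic cyclins and securin for destruction and so lets chromosomes separate and cells leave mitosis and meiosis. Its activators, the Cdc20 and Cdh1 families, bring substrates to the complex at different times of the cell cycle, and in worms loss of its subunits arrests the fertilized egg at metaphase of meiosis. CES-1 is a Snail-family zinc-finger protein known in worms for its role in the programmed death of particular neuronal sister cells. Snail-family proteins are known to bind sequences of the E-box type (CANNTG), above all CAGGTG.

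CES-1 sites lay in the promoter windows of 2 of the 7 genes, the subunit gene emb-27 and the activator gene fzy-1. The other members, mat-1, mat-3, mat-2, emb-30 and fzr-1, had no promoter summit in the thresholded peak list. Over all protein-coding genes, 3229 of 19973 (16.2%) had one, and among 7 genes the count of 2 is not far from that background. Both sites were among the stronger ones. Their pooled signals of 563 and 303 compare with a median of 131 for the strongest promoter summit of the 3229 occupied genes. The emb-27 value was also above that set's 90th percentile of 324, and the fzy-1 value lay between it and the upper quartile of 210. Signal is the peak caller's own value for a peak, its scale is not given in the sources used here, and read depth is unknown.

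The reference sequences around the sites that the results turn on are printed below from the RefSeq genome (WBcel235, plus strand, 5′ to 3′), ending before any annotated exon. Each window reaches up to 75 bp to either side of the summit, and capitals mark E-box-type matches (CANNTG). The first sequence is the strongest site of the set, the second is the site inside fzy-1, the third is the nearest site to fzr-1, and the fourth is a region upstream of mat-2 that was listed in replicate 2.
emb-27 site, chrII:8162352-8162464: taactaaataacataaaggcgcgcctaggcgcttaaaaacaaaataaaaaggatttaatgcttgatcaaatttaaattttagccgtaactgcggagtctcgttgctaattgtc
fzy-1 site, chrII:5501349-5501499: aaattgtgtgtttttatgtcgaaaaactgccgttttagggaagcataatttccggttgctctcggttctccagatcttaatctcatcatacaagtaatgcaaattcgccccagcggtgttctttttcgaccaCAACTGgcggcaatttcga
fzr-1 upstream site, chrII:9646185-9646335: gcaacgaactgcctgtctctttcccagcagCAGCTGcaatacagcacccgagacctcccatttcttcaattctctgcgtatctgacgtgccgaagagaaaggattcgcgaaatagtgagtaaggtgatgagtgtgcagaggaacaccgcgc
mat-2 upstream region, chrII:11112433-11112583: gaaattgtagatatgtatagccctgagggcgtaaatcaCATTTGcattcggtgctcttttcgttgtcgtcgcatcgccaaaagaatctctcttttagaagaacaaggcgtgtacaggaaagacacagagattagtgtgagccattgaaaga

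The emb-27 window held no CANNTG match, and its base composition was 34.5% GC. The fzy-1 window was 42.4% GC, the fzr-1 upstream window 52.3% and the mat-2 window 42.4%, while 151-bp windows around all 6273 nuclear thresholded summits had a median of 40.4% GC, with quartiles of 35.8% and 45.0%. The fzr-1 upstream window was therefore the one above the upper quartile, and the emb-27 window, which is shorter at 113 bp, the one below the lower quartile.

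Among the subunit genes, emb-27 had the strongest site. It encodes the worm counterpart of CDC16, a scaffold subunit built of tetratricopeptide repeats, and lies on chromosome II at 8159865-8162170 on the minus strand (WBGene00001281). The peak spanned 8162252-8162559, a width of 308 bp, with its summit at 8162427, in intergenic sequence 257 bp upstream of the 5′ end of emb-27. Its pooled signal of 563 ranked 176th in the list, and 2.77% of all nuclear peaks were as strong. Among the occupied genes emb-27 ranked 74th of 3229. The signal was 287 in replicate 1 and 275 in replicate 2, a mean of 281 ± 8.78 (SD, n = 2), and the site ranked 153rd and 217th in the lists of replicates 1 and 2. The replicates placed the summit within 8 bp of each other. The replicates thus gave nearly the same value for this site. The log2 ratio of replicate 2 to replicate 1 was -0.06, or -0.21 after subtraction of the median of 0.15 over the 5928 thresholded peaks found in both.

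The emb-27 site was shared. The gene rrf-3, which encodes an RNA-directed RNA polymerase of the endogenous small-RNA pathway, is transcribed away from emb-27 on the plus strand, and 294 bp of sequence lie between the genes. The summit was 38 bp upstream of rrf-3 and 257 bp upstream of emb-27, so it lay nearer to rrf-3. Peak position alone does not assign the site to either gene. Of the 2778 summits in promoter windows over the genome, 749 (26.96%) lay in the windows of at least 2 genes, and 1448 of the 3229 occupied genes (44.8%) had a strongest promoter summit that another gene's window also held. A weaker thresholded summit lay 3942 bp downstream of the emb-27 5′ end, in intergenic sequence beyond the end of the gene, with a pooled signal of 59.6, just above the lowest value in the list of 58.7. Its signals were 31.7 in replicate 1 and 36.5 in replicate 2.

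The mat-1 gene encodes the counterpart of CDC27, another tetratricopeptide-repeat subunit and a docking point for the activators. It lies on chromosome I at 5123915-5127201 on the minus strand (WBGene00003132). No entry of any of the 4 lists, thresholded, pooled relaxed or of either replicate, had its summit within 2500 bp of the gene. It was the only member of which this held, and 34.9% of all protein-coding genes were alike in this. The nearest thresholded summit, with a pooled signal of 110, was 13376 bp upstream, and 63.1% of genes had one at least as near. Its signals were 42.4 in replicate 1 and 76.8 in replicate 2. The divergent neighbour of mat-1, prp-31, starts 626 bp away and had no promoter summit.

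The mat-3 gene encodes the counterpart of CDC23, also a tetratricopeptide-repeat subunit, and lies on chromosome III at 475454-482325 on the plus strand (WBGene00003134). The relaxed pooled list, which holds 30000 entries down to background, contained an entry 96 bp upstream of its 5′ end with a signal of 18.3, at rank 21339 and a -log10 q of 0.24. Neither replicate listed that entry, and a signal at this rank does not show binding at mat-3. The nearest thresholded summit was 3673 bp upstream with a pooled signal of 81.3. That site had a signal of 24.995 in replicate 1 and 62.6 in replicate 2, so the replicates stood well apart there. It lay 536 bp upstream of nemp-1, the gene that precedes mat-3 on the same strand with a gap of 104 bp. The promoter window of magu-1 held this summit too. Peak position alone does not show which gene that site serves.

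The mat-2 gene, for the counterpart of APC1, the large scaffold subunit, lies on chromosome II at 11112719-11120805 on the plus strand (WBGene00003133). Here the replicate and pooled lists differed. Replicate 2 listed an entry at 11112316-11112699 with its summit 211 bp upstream of the mat-2 5′ end, a signal of 52.9, rank 4057 and a -log10 q of 2.68. Replicate 1 listed no entry there, its only one near mat-2 being 947 bp upstream with a signal of 15.6 at rank 14031. The pooled relaxed list had no entry within 3269 bp of the replicate 2 summit. Such gaps occurred elsewhere. Of the 6271 strongest nuclear entries of replicate 2, 297 (4.74%) had no pooled relaxed entry within 100 bp. In replicate 1, 645 (10.3%) had no entry that near. Both were missing, as at mat-2, for 230 (3.67%). Gaps as wide as the one at mat-2 were not counted. Counting thresholded summits alone, 3 of the 7 members (mat-1, mat-2 and mat-3) had none within 2500 bp of the gene, against 68.6% of all genes. The nearest thresholded summit to mat-2 was 9466 bp upstream, with a pooled signal of 68.7. That summit had 29.4 in replicate 1 and 39.2 in replicate 2.

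The emb-30 gene encodes the counterpart of APC4, a subunit of the scaffold, and lies on chromosome III at 9435507-9441460 on the minus strand (WBGene00001284). Its nearest thresholded summit was 2162 bp upstream, outside the promoter window, and lay in an untranslated exon of pir-2, 12 bp downstream of the pir-2 5′ end. The gene pir-2 is on the same strand and ends 96 bp before emb-30 begins. The site thus lay in the promoter window of pir-2, and its sequence, being exonic, is not printed. Peak position alone does not show whether it serves pir-2, emb-30 or both. This site was strong, with a pooled signal of 248 at rank 1041, and 16.5% of nuclear peaks were as strong. Its signals were 106 in replicate 1 and 142 in replicate 2, a mean of 124 ± 25.9 (SD, n = 2). Replicate 2 was the higher here, by 1.35-fold, while at emb-27 replicate 1 was slightly the higher. Over shared peaks the median log2 ratio of replicate 2 to replicate 1 was 0.15. In the strongest 20% of thresholded peaks, 36.0% deviated by as much as this site. Within emb-30 itself, a relaxed pooled entry with a signal of 38.1 lay 223 bp downstream of the 5′ end in a coding exon, just outside the window. Replicate 2 listed it with a signal of 23.3, and replicate 1 did not list it.

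**Figure D1:**
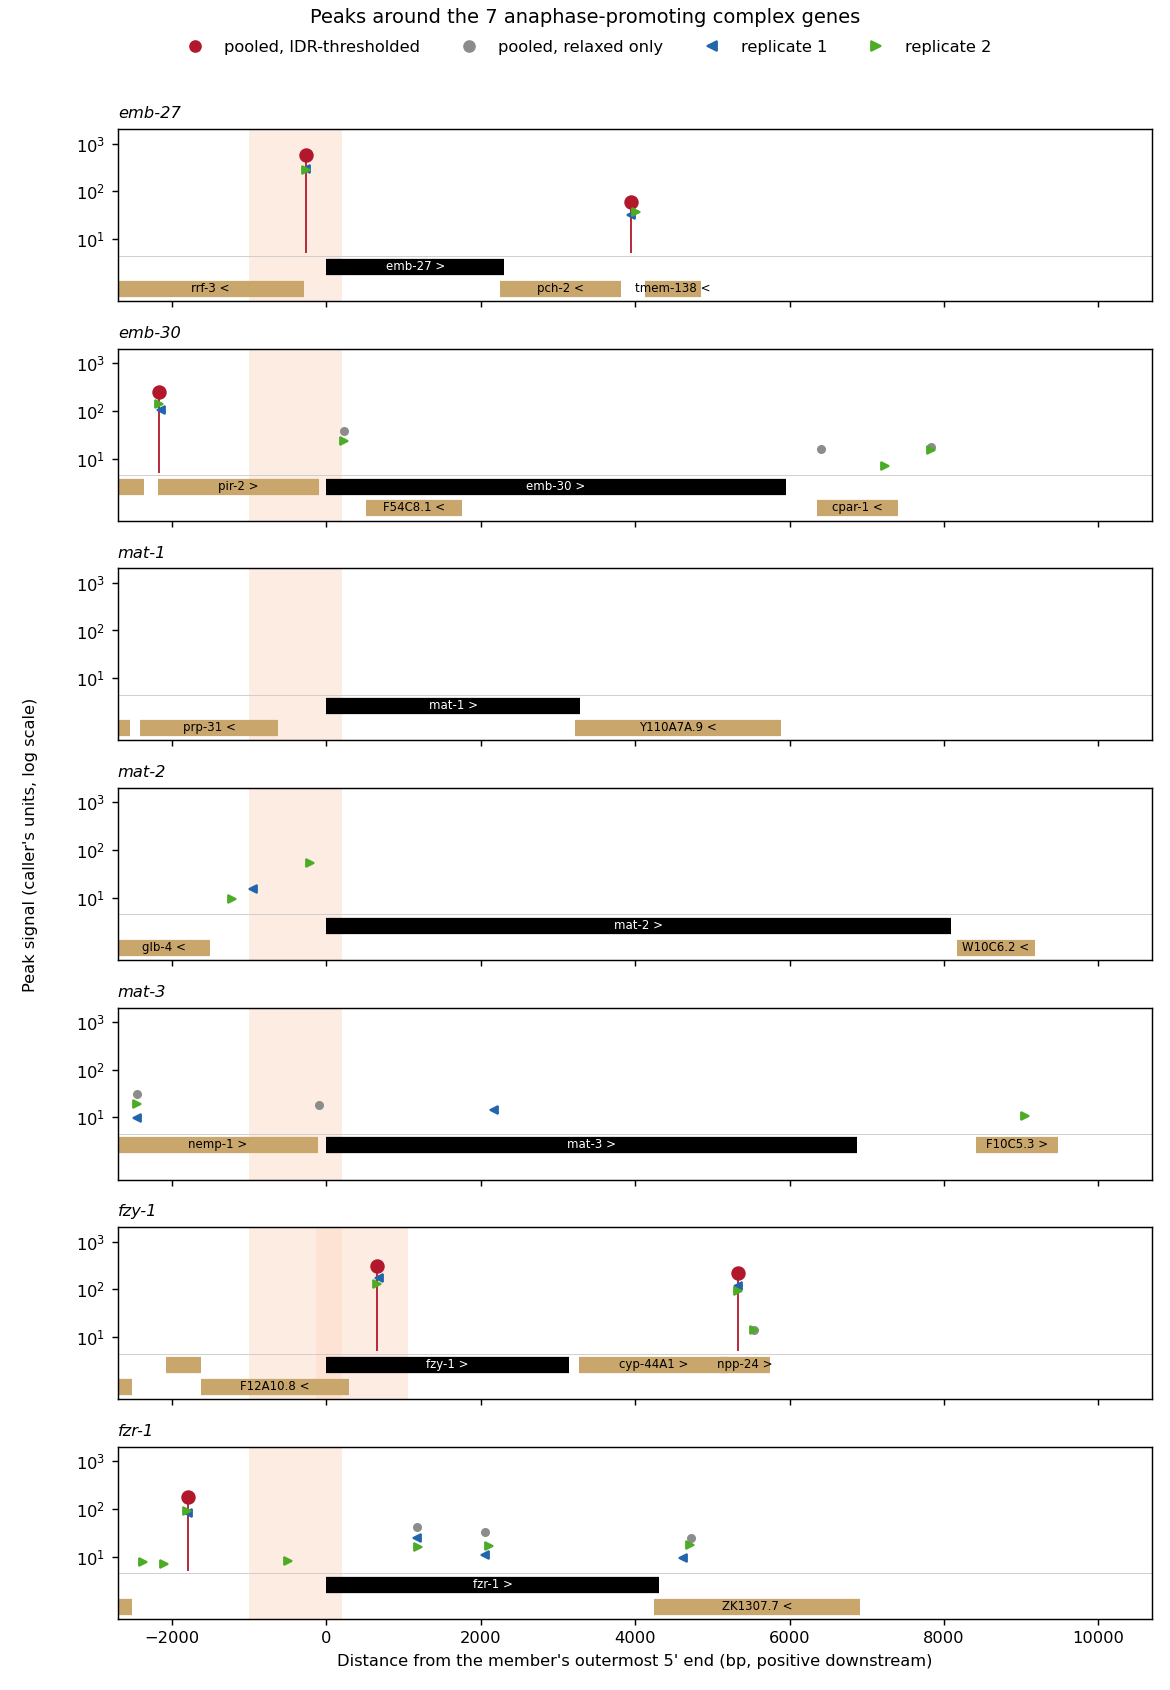
Peak signal (vertical axis, log scale, the peak caller's units) against distance from each member's outermost 5′ end (bp, positive downstream), with circles for the pooled thresholded and relaxed lists and triangles for the replicates. Black bars are the members, tan bars neighbouring genes with > or < for the direction of transcription relative to the member, and pale shading the promoter windows. The thresholded summits inside shading are the ones at emb-27 and fzy-1, and the mat-1 panel holds no entry.

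Of the activators, fzy-1 had a site and fzr-1 did not. The fzy-1 gene encodes the Cdc20-family activator, which works with the complex at the onset of anaphase and is the target of the spindle checkpoint. It lies on chromosome II at 5500770-5503912 on the plus strand (WBGene00001511). The peak spanned 5501326-5501540, a width of 215 bp, and its pooled signal of 303 ranked 704th, with 11.1% of nuclear peaks as strong. Among occupied genes fzy-1 ranked 390th of 3229. The signal was 176 in replicate 1 and 132 in replicate 2, a mean of 154 ± 31.0 (SD, n = 2), and the site ranked 462nd in replicate 1 and 1052nd in replicate 2. Replicate 1 was the higher by 1.33-fold. On the log2 scale the ratio of replicate 2 to replicate 1 was -0.41, or -0.56 after subtraction of the median over shared peaks. In the strongest 20% of thresholded peaks, to which both member sites belong, the ratio had an SD of 0.31 and 7.24% of peaks deviated by as much as fzy-1, against 43.5% for emb-27.

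The place of the fzy-1 site depends on which transcript is used. The annotation gives fzy-1 a 5′ end at 5500770 for transcript ZK177.6.2 and one at 5501633 for ZK177.6.1. The summit at 5501424 lay 209 bp upstream of the inner 5′ end but 654 bp downstream of the outer one, in an intron of ZK177.6.2. The same summit was thus the gene-body summit of fzy-1, and no member had a gene-body summit apart from it. With this summit, 1 of the 7 members had a summit in its body, against 7.19% of all genes. With summits in a gene's own promoter window left out, the count was 0 of 7, against 5.16%. The promoter count for the members was 1 (emb-27), against 14.9% of genes, where only the outermost 5′ end of each gene was used. The fzy-1 site was shared too, since F12A10.8, an oppositely oriented gene that overlaps the outer exon of fzy-1, had its 5′ end 360 bp from the summit. By distance the inner 5′ end of fzy-1 was the nearest. Both promoter sites of the members therefore lay in the window of an oppositely oriented neighbour, rrf-3 or F12A10.8. Among all occupied genes, 44.8% had a strongest promoter summit shared with another gene of either orientation. The share with an oppositely oriented neighbour was not counted, so this does not set the members apart.

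Beyond the gene, another thresholded summit lay 4468 bp downstream of the inner fzy-1 5′ end, with a pooled signal of 216. It fell at npp-24, which encodes a nucleoporin, in an untranslated exon of one transcript and an intron of another. Its signals were 120 in replicate 1 and 93.8 in replicate 2, so replicate 1 was the higher here as well.

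The fzr-1 gene encodes the Cdh1-family activator, which acts late in mitosis and in interphase, and lies on chromosome II at 9640156-9644466 on the minus strand (WBGene00001510). Its nearest thresholded summit was 1794 bp upstream, outside the promoter window, in the 2511 bp that separate fzr-1 from the divergent gene sqv-8. The site lay nearer to sqv-8, which encodes a glycosyltransferase of glycosaminoglycan synthesis, at 718 bp upstream of it. Its pooled signal was 175 at rank 1911, with 81.0 in replicate 1 and 92.8 in replicate 2, a mean of 86.9 ± 8.39 (SD, n = 2). The replicates were close here. A promoter window from 2000 bp upstream to 500 bp downstream would include this site and raise the members' count to 3 of 7, against 21.2% of all genes. Inside fzr-1, relaxed entries lay 1169 bp and 2052 bp from the 5′ end, with pooled signals of 42.2 and 32.6, both below the lowest thresholded value of 58.7. The signals of the entry at 1169 bp were 24.1 in replicate 1 and 16.1 in replicate 2, and those of the entry at 2052 bp were 11.1 in replicate 1 and 16.8 in replicate 2. Within the fzr-1 promoter window, only replicate 2 listed an entry, 493 bp upstream, with a signal of 8.17 at rank 25604. A signal at this rank does not show binding at fzr-1.

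**Figure D2:**
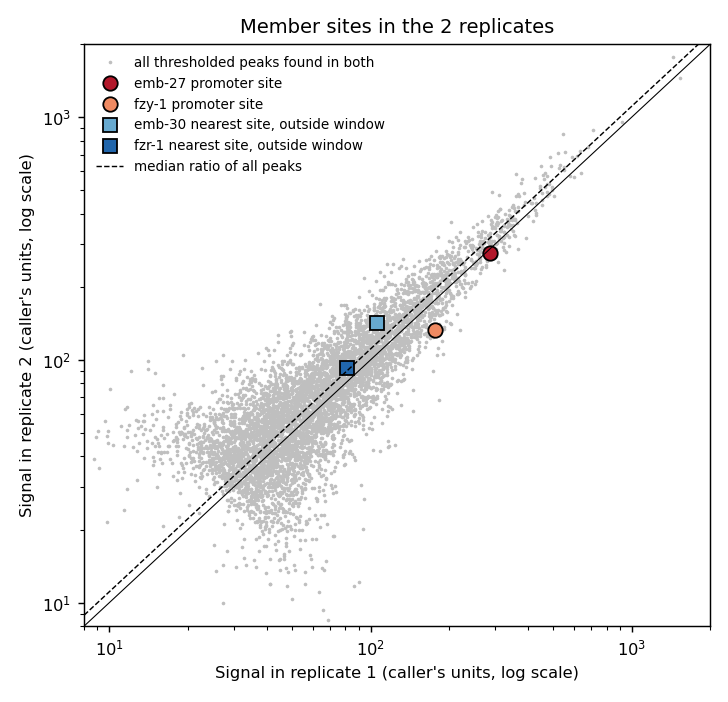
Peak signal in replicate 1 (horizontal) against replicate 2 (vertical), both on log scales in the peak caller's units, for the 5928 thresholded peaks found in both replicates (grey). The emb-27 site lies near the line of equal signal at 287 and 275, and the fzy-1 site lies below it at 176 and 132. The squares are the nearest sites to emb-30 and fzr-1, which fall outside the promoter windows.

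Distances to the nearest thresholded summit ordered the members as fzy-1 (209 bp), emb-27 (257 bp), fzr-1 (1794 bp), emb-30 (2162 bp), mat-3 (3673 bp), mat-2 (9466 bp) and mat-1 (13376 bp). The median was 2162 bp over the 7 members and 8407 bp over all protein-coding genes, for which the quartiles were 2244 bp and 20861 bp. The share of genes with a summit at least as near was 7.47% for fzy-1 and 9.002% for emb-27, 22.6% for fzr-1 and 24.6% for emb-30. It was 32.4% for mat-3 and 53.2% for mat-2. In 5 of the 7 cases, all but mat-1 and mat-2, the nearest summit was also a promoter summit of a gene adjacent to or overlapping the member. The share of all genes for which this held was not counted, so the count does not set the members apart. The pooled relaxed list added mat-3 to the members with any promoter entry, giving 3 of 7, against 34% of all genes.

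**Figure D3:**
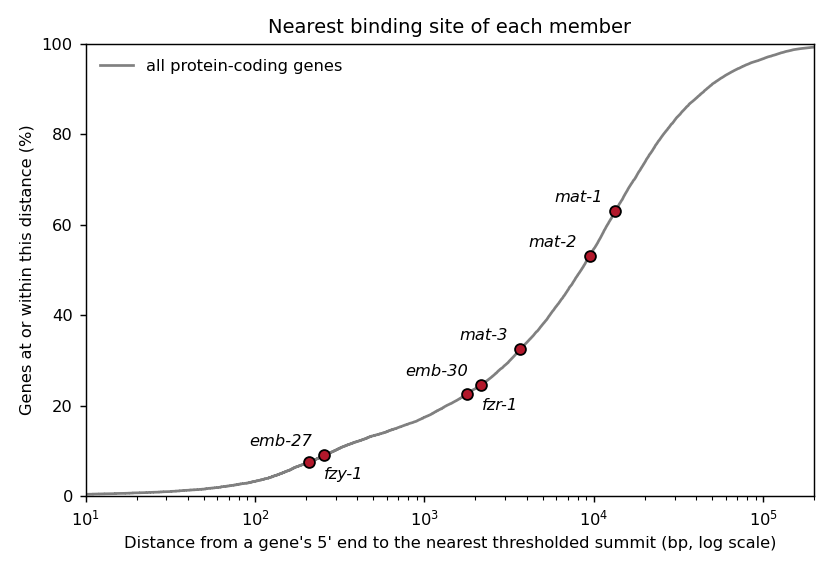
Cumulative share of all 19973 protein-coding genes (grey line, percent) by distance from a 5′ end to the nearest thresholded summit (bp, log scale), with the members as red points on the line. The points run from 209 bp at fzy-1 to 13376 bp at mat-1.

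Neither promoter site carried the motifs searched, on both strands, within 50 bp of its summit. CAGGTG, the Snail-type E-box, was in 0 of the 2 sites, against 113 of 6273 nuclear summits (1.8%). The general E-box form CANNTG, which includes CAGGTG, was in 0 of 2, against 2187 (34.9%). The E2F-type core TTCCCGC, named for a family of cell-cycle factors, was in 0 of 2, against 111 (1.77%). With only 2 sites and these shares, counts of 0 do not set the member sites apart. Within 100 bp of the summit, the fzy-1 site held CAACTG, starting 57 bp from its summit, and 56.1% of nuclear summits had a CANNTG that near. At the sites outside the windows, CAGCTG started -45 bp from the summit upstream of fzr-1 and 38 bp from the summit upstream of emb-30. In the printed mat-2 region CATTTG started -37 bp from the summit of replicate 2. These matches describe letters in a window and show no contact by CES-1.

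Both member sites were narrow. The emb-27 peak was 308 bp and the fzy-1 peak 215 bp wide, while 69.4% of nuclear thresholded peaks had one fixed width of 390 bp and 28.3% were narrower. The nearest site to emb-30 was 198 bp wide, and that of fzr-1 had the fixed width. Widths were not compared between peaks of like strength, so they do not set the members apart.

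Genes that work with the members were set beside them in 3 lists: other subunits, the spindle checkpoint, and substrates and mitotic regulators. Among the other subunits 1 of 6 genes had a promoter summit, gfi-3, for an APC5-like subunit, with a pooled signal of 74.3 at 161 bp upstream. That site was weak and had 34.6 in replicate 1, 101 bp from the pooled summit, and 48.3 in replicate 2. The subunit gene emb-1 had an entry in each replicate, of 68.5 in replicate 1 at 745 bp upstream and of 45.5 in replicate 2 at 735 bp, yet the nearest pooled relaxed entry was 9683 bp away. Of the 4786 sites that were among the strongest entries of both replicates, 49 (1.02%) had no pooled relaxed entry within 100 bp. For 40 (0.836%) there was none within 500 bp. Gaps as wide as the one at emb-1 were not counted.

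In the spindle checkpoint list, 5 of 9 genes had a promoter summit, with a median signal of 165. The checkpoint holds the complex inactive, by way of fzy-1, until chromosomes are attached. Its summits were at zwl-1 (257), mdf-2 (246), czw-1 (165), mdf-1 (117) and san-1 (104), which encode the Zwilch, Mad2, ZW10, Mad1 and BubR1-related proteins. The genes bub-1, bub-3, spdl-1 and rod-1 had no thresholded one. At bub-3 the relaxed pooled list held a promoter entry of 55.3, just below the lowest thresholded value of 58.7. Of the 5 thresholded sites, 4 also lay in another gene's window, nduv-3 for mdf-2, ZC328.5 for san-1, F20D12.12 for czw-1 and dot-1.1 for zwl-1, and the mdf-1 site did not. The share over all occupied genes was 44.8%, and the difference was not tested. At zwl-1 the signals were 136 in replicate 1 and 123 in replicate 2, and at mdf-2 they were 128 and 119. Every signal in this list was below those of emb-27 and fzy-1.

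Among substrates and mitotic regulators, 5 of 11 genes had a promoter summit, with a median signal of 170. They were air-2, the Aurora B kinase, at 260, ify-1, the securin destroyed at anaphase, at 239, sep-1, the separase, at 170, cyb-1, a cyclin B, at 131, and cdk-1, the mitotic kinase, at 103. The genes cyb-2.1, cyb-2.2, cyb-3, cya-1, plk-1 and air-1 had none in the thresholded list. The relaxed pooled list held promoter entries at air-1 (53.1), cyb-3 (44.3) and cyb-2.1 (20.4), all below the lowest thresholded value of 58.7. At ify-1 the signals were 95.6 in replicate 1 and 143 in replicate 2. All 5 sites also lay in another gene's window, rpl-22 for ify-1, nefr-1 for sep-1, orc-5 for cyb-1, iff-1 for cdk-1 and B0207.6 for air-2. Over all occupied genes, 44.8% had a strongest promoter summit that another gene's window also held. The difference was not tested. The air-2 site had 138 in replicate 2 and no entry in replicate 1. Among nuclear peaks in the first 1000 ranks of the thresholded list, 5 of 991 (0.505%) had no replicate 1 entry within 500 bp. The gene share with a promoter summit was 28.6% for the members, 16.7% for other subunits, 55.6% for the checkpoint list and 45.5% for the substrate list, against 16.2% of all genes. The lists, like the members, were chosen with earlier results of these data known, hold 6 to 11 genes each and were not tested, so these shares describe the listed genes only.

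**Figure D4:**
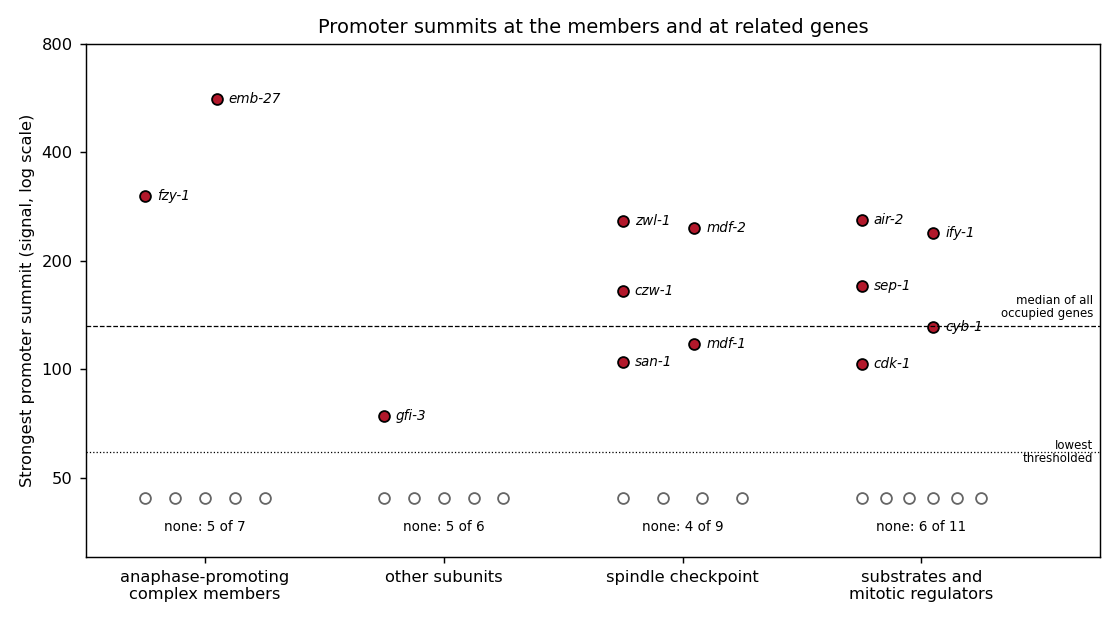
Signal of the strongest promoter summit of each gene (log scale, the peak caller's units) in the members and in the 3 lists of related genes, with open circles for genes without one. The dashed line is the median over all occupied genes, 131, and the dotted line the lowest thresholded signal, 58.7. The emb-27 point at 563 and the fzy-1 point at 303 are above every related gene, the highest of which is air-2 at 260. Replicate 1 had no entry for the air-2 site.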

How the data were processed

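Peaks were lists made by the authors on ce11: a thresholded list of reproducible peaks (irreproducible discovery rate, IDR) from pooled replicates, a relaxed pooled list, and a relaxed list for each replicate. Per the deposited notes peaks were called on alignments against a control. Which aligner and caller were used is not given in the sources used here. Signal is the authors' value per peak, and the deposited -log10 q-values are theirs. Read depth is unknown, so no counting interval is given.

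Summits (start plus offset) were placed on the Ensembl release 115 annotation (WBcel235) with Python 3.11.15, numpy 2.4.6 and pandas 2.3.3, and plotted with matplotlib 3.10.9. The 6273 nuclear peaks of the thresholded list were used. Replicate entries were matched within 100 bp. With 1 group no test between groups was made, and values were set beside those of all genes or peaks. All 7 members were described, as were neighbours sharing their sites and, in each list, up to 6 genes with the strongest promoter summits. The emb-1 gene was named after its values were seen. The counting steps were tested on simulated data. Members and lists were chosen with earlier results of these data known. Alternatives were other windows, 5′ ends, peak cut-offs, replicate lists, matching distances and motif windows. The ce10 lists served as an alternative for signal.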

Additional observations from a re-analysis of the deposited data

How the results depend on the processing

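Of 67 alternative values for 17 results, 50 kept the reported value or moved little, 16 moved and 1 reversed. The 50 include some counts that changed by 1 gene. Among these, the members' promoter count rose from 2 to 3 with the window from 2000 bp upstream to 500 bp downstream, and without replicate 1. With pooled relaxed entries of a -log10 q of at least 2, the checkpoint count rose to 6 of 9, with bub-3 added. The substrate count rose to 6 of 11 there, with air-1 added, and the members' count stayed at 2. Over all genes the share was then 17.4%. The members' promoter count of 2 was 1 with only outermost 5′ ends (emb-27), 1 with each summit given to the nearest gene (fzy-1, against 12.5% of genes) and 1 with the 500 strongest peaks (emb-27, against 1.27%). With 1 replicate left out, the strongest entries of the other replicate's relaxed list replaced the pooled thresholded list, so the list and the sample changed together. The members' count was then 2 to 3, with mat-2 added in replicate 2 alone (3 of 7, against 16.3%). The gene-body count of 1 was 0 with the own promoter window left out. The count of 1 for other subunits was 0 with the 2000 strongest peaks (5.81% of genes), 0 with the 500 strongest (1.27%) and 2 to 2 in single replicates (16.3%). The gene gained was emb-1 in either replicate. Because the list and the sample changed together, their parts in this gain cannot be told apart. The checkpoint count of 5 of 9 was 2 with the 2000 strongest, against 5.81% of genes, and 0 with the 500 strongest, against 1.27%. The substrate count of 5 of 11 was 2 with nearest genes (12.5% of genes), 2 with the 2000 strongest (5.81%), 0 with the 500 strongest (1.27%) and 4 to 5 in single replicates (16.3%), air-2 being lost without replicate 2. The fzy-1 summit lay 209 bp upstream, but -654 bp (downstream) from the outermost 5′ end, and 185 to 205 bp upstream in single replicates, where emb-27 had 257 to 265 bp. CANNTG sites numbered 0 within 50 bp and 1 within 100 bp. Stricter cut-offs and nearest-gene assignment lower the counts over all genes too, by construction. Why the pooled list has no entry at emb-1 or mat-2 was not tested. The emb-27 and fzy-1 signals were the same on ce10 to every digit given (563.051 and 302.971). These values, counted among the 50, come from the same experiment on another genome build and give no independent check. No paired analysis was possible because there is 1 group. Peak lists without read counts limit every statement to presence and rank, and a gene with no entry may still be bound below the detection of these lists.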
